A study of Mus musculus with 67 samples.

Results

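The accessible chromatin elements assigned to 10 genes of the retinoic acid pathway were followed through the generation of ventral neural progenitors (NPs) from mouse embryonic stem cells. The genes were Rara, Rarb, Rarg, Crabp1, Crabp2, Aldh1a2, Dhrs3, Cyp26a1, Cyp26b1 and Cyp26c1. An element belonged to the set when the authors' annotation of the consensus elements named 1 of these genes as the nearest gene. This gave 99 of the 111638 elements with values, and 39 of the 99 had a mean above 100 normalised counts over all samples and entered the tests. Of the 99 elements, 51 lay in introns, 35 were intergenic, 8 were annotated at a promoter and 5 in an exon, and 23 were more than 100 kb from the annotated start of their gene. Assignment to the nearest gene does not show that an element acts on that gene.

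Retinoic acid is made from vitamin A. Retinol is oxidised to retinaldehyde, which Dhrs3 can reduce back to retinol, and Aldh1a2 oxidises retinaldehyde to retinoic acid. Crabp1 and Crabp2 bind retinoic acid in the cytoplasm, the receptors encoded by Rara, Rarb and Rarg bind DNA as partners of RXR and regulate transcription, and the Cyp26 enzymes degrade retinoic acid. In the embryo, retinoic acid from the somites promotes neural differentiation of the caudal progenitors that extend the axis, and Rarb, Cyp26a1 and Dhrs3 are known for being induced by it.

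The samples were 67 libraries from the HM1 mouse embryonic stem cell line, made by CaTS-ATAC, in which fixed cells are treated with the Tn5 transposase, stained for intracellular markers and sorted before sequencing. Neuromesodermal progenitors (NMPs) at day 3 gave 3 samples, which had received bFGF, CHIR99021, SB-431542 and DMH1 but neither retinoic acid nor SAG, an agonist of the Sonic hedgehog pathway. All NPs received retinoic acid from day 3, and SOX2-expressing NPs were sorted at days 4, 5 and 6 into p0-1, p2, pMN and p3 on PAX6, NKX6.1, OLIG2 and NKX2.2. The p0-1 cells came from 0 and 10 nM SAG, p2 from 10 and 100 nM, and pMN and p3 from 100 and 500 nM, which made 25 conditions of 2 or 3 replicate differentiations. Day 4 held 6 p0-1, 6 p2, 6 pMN and 5 p3 samples, day 5 held 6, 6, 5 and 5, and day 6 held 5, 6, 4 and 4. Retinoic acid was not varied among the NPs, and the samples came from a single line in culture.

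The number of reads in elements ranged from 9298160 to 29985325 per sample, with a median of 20254011. The elements nearest the marker genes T, Olig2 and Foxa2 followed the labels in the comparisons given here. The element nearest T, an NMP gene, averaged 1175 normalised counts in NMPs, against 99 to 276 in the groups of NPs, that of Olig2 was highest in pMN at day 6 (2325, against 408 to 1005 in the other types), and that of Foxa2 in p3 at day 6 (1662, against 261 to 306 in the other types). In NMPs the elements of Olig2 and Foxa2 were also open, with means of 1114 and 1494. That of Nkx6-1 averaged 1431 in p0-1 at day 6, against 2431 to 2586 in the other types, and 2068 in NMPs. That of Pax6 averaged 1696 in p3 at day 6, against 3208 to 3889 in the other types, and 1690 in NMPs. Nkx2-2 was not analysed here. Of the 67 libraries, 4 stood apart from the others of their type and day (correlation below 0.96). They were p0-1 at 0 nM SAG replicate 1 and at 10 nM replicate 3 at day 4, and p0-1 at 0 nM replicate 3 and p2 at 100 nM replicate 3 at day 6. Leaving these 4 libraries out moved no count of called member elements by more than 1.5 times and changed the call of no element followed by the naming rule.

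Elements are named here by the gene and the distance in bases of the element's centre from the annotated start of transcription, positive downstream. The Rarb sequence below is shown because this promoter is the textbook example of a retinoic acid response element. It gives the 250 bases before the RefSeq start of transcription, read on the minus strand of GRCm38 (mm10), and lies inside the element Rarb +1103. Capitals mark a DR5, a direct repeat of a 6-base receptor motif with 5 bases between the copies. The motif was AGGTCA or the variant GGGTCA, the variant AGTTCA or the variant GGTTCA.
Rarb promoter, chr14:16575477-16575726: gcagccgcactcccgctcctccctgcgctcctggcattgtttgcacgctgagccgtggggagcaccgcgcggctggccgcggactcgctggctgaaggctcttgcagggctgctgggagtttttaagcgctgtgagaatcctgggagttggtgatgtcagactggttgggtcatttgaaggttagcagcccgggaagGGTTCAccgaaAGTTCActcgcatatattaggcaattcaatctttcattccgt

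A search of both strands of all 99 elements for the same 4 motifs as direct repeats found 6 elements with a DR5. They are shown because the DR5 is the arrangement best known for binding RAR and RXR. Each is printed with 6 bases on either side, on the strand where the repeat reads as a direct repeat, with the motifs in capitals.
Rarb +1103, chr14:16575507-16575535, minus strand: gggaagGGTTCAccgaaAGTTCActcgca
Rara +22463, chr11:98960002-98960030, plus strand: caggcgAGTTCAgcaagAGTTCAgccgaa
Cyp26a1 +496, chr19:37697770-37697798, minus strand: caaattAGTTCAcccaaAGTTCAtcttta
Cyp26a1 -1736, chr19:37695903-37695931, plus strand: ctgcagGGGTCAcaggcGGGTCAggctaa
Cyp26a1 +154142, chr19:37851647-37851675, minus strand: agggcgAGTTCAcctacAGTTCAagggaa
Dhrs3 +141812, chr4:145034804-145034832, minus strand: cagctgGGGTCAttccaAGTTCAcgcggt

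The 6 elements were 6.06% of the 99, whose median width was 996 bases. A DR5 lay in 0.845% of all 111638 elements, whose median width was 883 bases. Within a window of the same 300 bases at each centre, 1 of the 99 elements (1.01%) held a DR5, against 0.327% of all elements. A repeat with a spacing of 1 (DR1) was found in Crabp1 -4980, Cyp26b1 +51990 and Cyp26b1 -71425, and 1 with a spacing of 2 (DR2) in Crabp2 -986. With these, 10 of the 99 elements (10.1%) held some repeat, against 3.09% of all. These shares are a description of the letters, without a test, and no binding was measured. The 300 bases at the centre of Dhrs3 +141812 (plus strand, chr4:145034740-145035039), an element in an intron of Vps13d whose accessibility rose from NMPs to day 4 and again from day 4 to day 5, are printed to show where its DR5 sits, here in capitals as it reads on this strand.
Dhrs3 +141812: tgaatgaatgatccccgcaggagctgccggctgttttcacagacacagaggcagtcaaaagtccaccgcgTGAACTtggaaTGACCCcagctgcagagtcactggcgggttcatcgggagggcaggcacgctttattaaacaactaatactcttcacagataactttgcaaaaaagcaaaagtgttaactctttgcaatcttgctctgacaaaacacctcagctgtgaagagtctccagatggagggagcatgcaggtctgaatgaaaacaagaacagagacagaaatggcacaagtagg
The 300 bases at the centre of Rarb -158101 (plus strand, chr14:16733428-16733727), the member element with the largest difference between NMPs and day 4, are printed for comparison and hold none of these repeats.
Rarb -158101: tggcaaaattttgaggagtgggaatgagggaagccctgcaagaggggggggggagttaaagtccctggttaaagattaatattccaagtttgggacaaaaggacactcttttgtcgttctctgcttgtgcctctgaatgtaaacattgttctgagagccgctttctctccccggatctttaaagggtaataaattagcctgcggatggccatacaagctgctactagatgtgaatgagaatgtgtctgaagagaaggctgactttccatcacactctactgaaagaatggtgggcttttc

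The first comparison asked how the pathway's elements differed between NMPs and the NPs of day 4, a day after the addition of retinoic acid and SAG. Differences are on the log2 scale of the deposited variance-stabilised values (VST), which understates the change of low elements, and are given ± the standard error. An element was called when its adjusted p was below 0.01 and its difference exceeded 1. Of the 39 tested elements, 15 rose and 5 fell. Over all 31744 tested elements, 30.6% rose and 13.8% fell. The median difference of the 39 was 0.43, and that of all tested elements was -0.22. NMPs and day 4 NPs differed in day, retinoic acid, SAG and the other factors of the medium at once, and these cannot be told apart. In sorted populations, more open cells and more open chromatin per cell cannot be told apart either. Because only 3 of the 67 samples were NMPs, an element open only in NMPs could miss the minimum mean, so counts over the tested elements favour those open in NPs.

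Among the elements of the 3 receptor genes, all 3 tested Rarb elements rose, while 1 of 7 Rara elements and 1 of 2 Rarg elements fell and none of those 9 rose. The share at Rara was near the 13.8% of all tested elements that fell, and neither of its promoter elements was called. The largest difference in the set was at Rarb -158101 (chr14:16732989-16734165), in an intron of the long Rarb transcripts. Its normalised count was 12.1, 15.8 and 19.4 in the 3 NMP samples and lay between 834 and 1729, with a median of 1519, in the 23 day 4 samples. The groups did not overlap, and the difference was 5.79 ± 0.11 (adjusted p = 2.63e-41), a 95.1-fold higher mean. Each NP type differed from NMPs by a similar amount, 5.67 in p0-1, 5.85 in p2, 5.83 in pMN and 5.82 in p3, each ± 0.12 or 0.13. Rarb -158101 then stayed at that level, with a median of 1449 at day 5 and 1526 at day 6.

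Rarb +1103 (chr14:16572859-16575887), which holds the promoter and DR5 printed above, was already accessible in NMPs. The 3 NMP samples had 246, 306 and 371 normalised counts and the day 4 samples between 1186 and 1880, with a median of 1525. The groups did not overlap, and the difference was 2.26 ± 0.09 (adjusted p = 1.04e-26). The median was 2011 at day 5 and 2247 at day 6, steps below the fold threshold. The third element, Rarb +5589 in an intron, rose by 2.31 ± 0.16 from a mean of 11.1 to 96.8 normalised counts. The remaining 15 of the 18 Rarb elements were below the minimum mean.

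Rara, the most widely expressed receptor gene, has 2 annotated promoters with elements. Rara -477 had 1373, 1610 and 1861 normalised counts in NMPs and a median of 1102 at day 4, a difference of -0.50 ± 0.11 that passed the p threshold (adjusted p = 3.61e-05) but not the fold threshold. Rara +22463, at the second promoter and holding a DR5, had a median of 1241 in NMPs and 1200 at day 4, and its difference did not pass the test (-0.04 ± 0.12, adjusted p = 0.764). The Rara element that fell was intergenic. Rara -11966 (chr11:98924873-98926588) went from 819, 866 and 1072 in NMPs to between 159 and 396 at day 4, with a difference of -1.92 ± 0.16 (adjusted p = 1.22e-15). At Rarg, the promoter element nearest the annotated start, Rarg -646 (chr15:102256517-102259820), fell by 1.59 ± 0.11 (adjusted p = 7.48e-19). Its NMP samples had 785, 936 and 1067 normalised counts and the day 4 samples between 228 and 499. Its median was 190 at day 5 and 132 at day 6, below all NMP samples. Rarg +10495, also annotated at a Rarg promoter, had a mean of 2546 in NMPs and 1965 at day 4, and was not called.

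**Figure D1:**
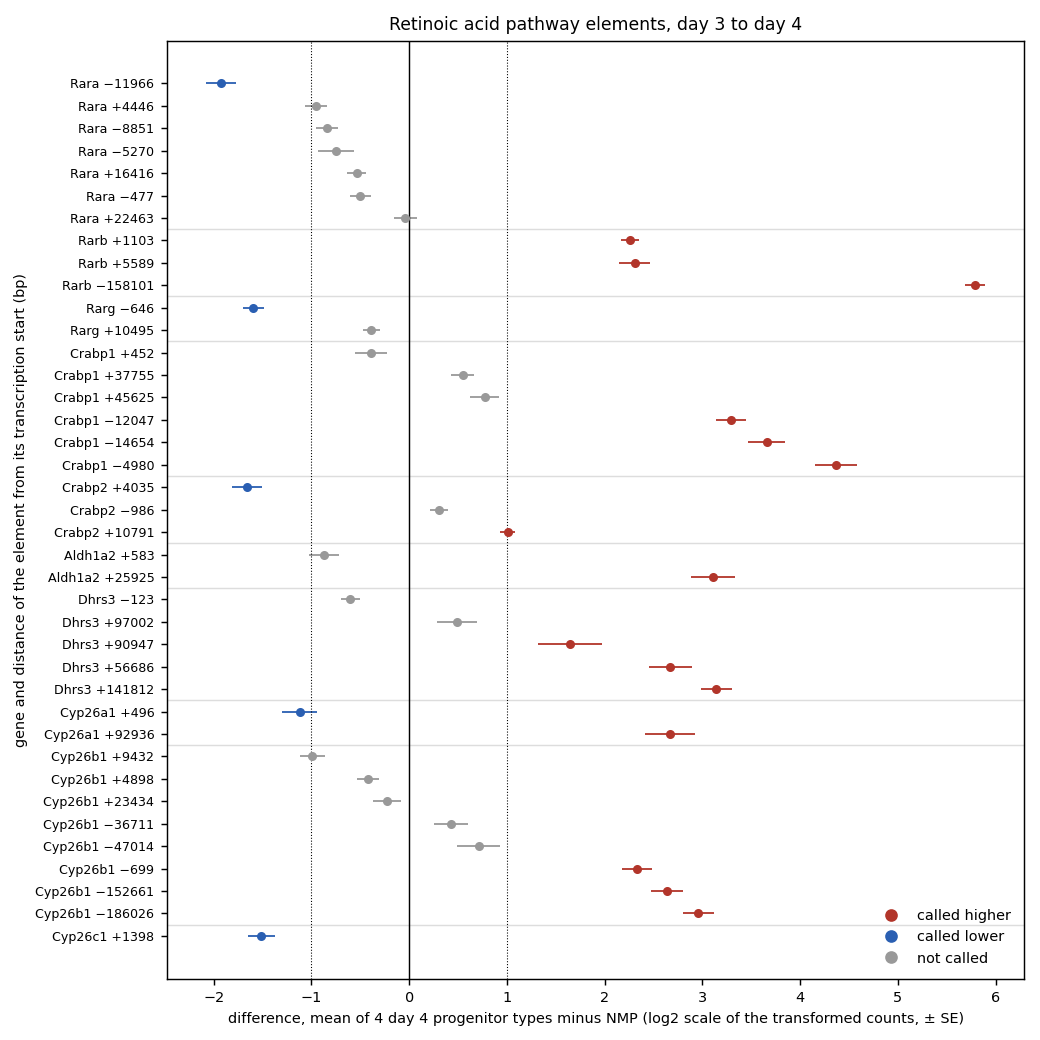
Difference between day 4 NPs and NMPs (log2 scale of the VST values, ± standard error) for the 39 tested elements, grouped by gene. Points to the right of 0 were higher at day 4: all 3 Rarb elements and 5 of the 6 Crabp1 elements stand to the right, 3 of those 5 called, with Rarb -158101 farthest at 5.79, and Rara -11966 stands farthest to the left at -1.92.

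At both genes of the cytoplasmic binding proteins, the elements that rose lay away from the promoter. At Crabp1, 3 of 6 tested elements rose, all of them intergenic and upstream of the gene. Crabp1 -4980 (chr9:54759271-54760266), which holds a DR1, had 15.1, 15.8 and 16.2 normalised counts in NMPs and between 355 and 883 at day 4, with a median of 523. The difference was 4.37 ± 0.21 (adjusted p = 5.12e-24). Crabp1 -14654 and Crabp1 -12047 rose by 3.66 ± 0.19 and 3.30 ± 0.15. The element at the start of Crabp1, Crabp1 +452, had a mean of 486 in NMPs and 377 at day 4, and its difference of -0.39 ± 0.16 did not pass the test (adjusted p = 0.0232). At Crabp2, whose product carries retinoic acid to the receptors, the intergenic Crabp2 +10791 rose by 1.01 ± 0.08, just past the threshold, and the intronic Crabp2 +4035 fell by 1.66 ± 0.15. Crabp2 +4035 had 487, 503 and 550 normalised counts in NMPs and between 117 and 306 at day 4, without overlap. The promoter element, Crabp2 -986, differed by 0.30 ± 0.09, within the fold threshold.

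The element nearest the start of Aldh1a2, the gene of the enzyme that makes retinoic acid in the trunk, was lower at day 4. Aldh1a2 +583 had 672, 706 and 827 normalised counts in NMPs and a median of 393 at day 4, with a range there of 248 to 823. Its overlap with the NMPs rested on 1 sample, p0-1 at 10 nM SAG replicate 3, a library that stood apart. The next highest day 4 sample had 524, below all NMP samples. The difference of -0.87 ± 0.15 did not reach the fold threshold. Aldh1a2 +25925 (chr9:71241178-71242251), in the first intron, rose by 3.11 ± 0.23 (adjusted p = 2.75e-17). It had 2.70, 6.06 and 9.69 normalised counts in NMPs and between 26.2 and 272 at day 4, with a median of 152.

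Dhrs3 turns retinaldehyde back into retinol, and its distal elements rose while the element at its start did not. Dhrs3 -123 had a mean of 998 normalised counts in NMPs and 662 at day 4 (-0.60 ± 0.10, within the fold threshold). Of the 5 tested elements, 3 rose, and all 3 lie downstream of the gene, 2 of them in introns of Vps13d. Dhrs3 +141812 (chr4:145034455-145035323), printed above, had 20.2, 24.2 and 60.3 normalised counts in NMPs and between 194 and 796 at day 4, with a median of 383. Its difference was 3.14 ± 0.16 (adjusted p = 3.30e-23). Dhrs3 +56686 rose by 2.67 ± 0.22 and Dhrs3 +90947 by 1.64 ± 0.33.

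The 3 Cyp26 genes, whose products remove retinoic acid, differed from each other. The element over Cyp26a1, Cyp26a1 +496 (chr19:37697218-37699391), fell. Its 3 NMP samples had 380, 411 and 461 normalised counts and the day 4 samples between 126 and 342, a difference of -1.12 ± 0.18 (adjusted p = 2.37e-07). This call was lost (-0.82) when the samples were centred on the median of all tested elements, and without replicate 1 of each condition (-0.90). Cyp26a1 +92936, an intergenic element far downstream, rose by 2.67 ± 0.25 from 3.64, 4.05 and 5.38 normalised counts to a median of 103. Cyp26c1 +1398 (chr19:37686403-37687753), the single tested element of that gene, fell by 1.52 ± 0.14, and its median was 419 in NMPs, 134 at day 4, 74.8 at day 5 and 46.6 at day 6.

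Cyp26b1 gained accessibility at its promoter and upstream. Cyp26b1 -699 (chr6:84593917-84595101) had 27.9, 40.5 and 40.9 normalised counts in NMPs and between 138 and 404 at day 4, with a difference of 2.33 ± 0.15 (adjusted p = 7.97e-19). Its median was 205 at day 4, 266 at day 5 and 442 at day 6. Cyp26b1 -186026 and Cyp26b1 -152661, in introns of Exoc6b, rose by 2.96 ± 0.16 and 2.64 ± 0.16. Cyp26b1 -186026 then had a median of 256 at day 4, 110 at day 5 and 60.1 at day 6, steps that were not called. Both intragenic elements near the promoter moved within the fold threshold, Cyp26b1 +4898 by -0.42 and Cyp26b1 +9432 by -0.99.

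For 25 of the 39 tested elements, the NMP samples all lay on 1 side of the range of the 23 day 4 samples, against 50.7% of all tested elements. Some elements below the minimum mean, chosen after their values were seen, had equally large steps. Dhrs3 +116546, in a Vps13d intron, had 146, 162 and 478 normalised counts in NMPs and between 1.90 and 11.1 at day 4. Cyp26b1 +81098 had 63.4, 106 and 108 in NMPs and between 3.22 and 17.5 at day 4. In the other direction, Cyp26c1 -49213 had 1.21, 2.70 and 5.38 in NMPs and between 37.8 and 147 at day 4. Without the minimum mean, 20 of the 60 low elements rose and 6 fell, against 25.1% and 21.9% of all elements below it, and these 3 had differences of -3.99, -2.34 and 2.90.

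**Figure D2:**
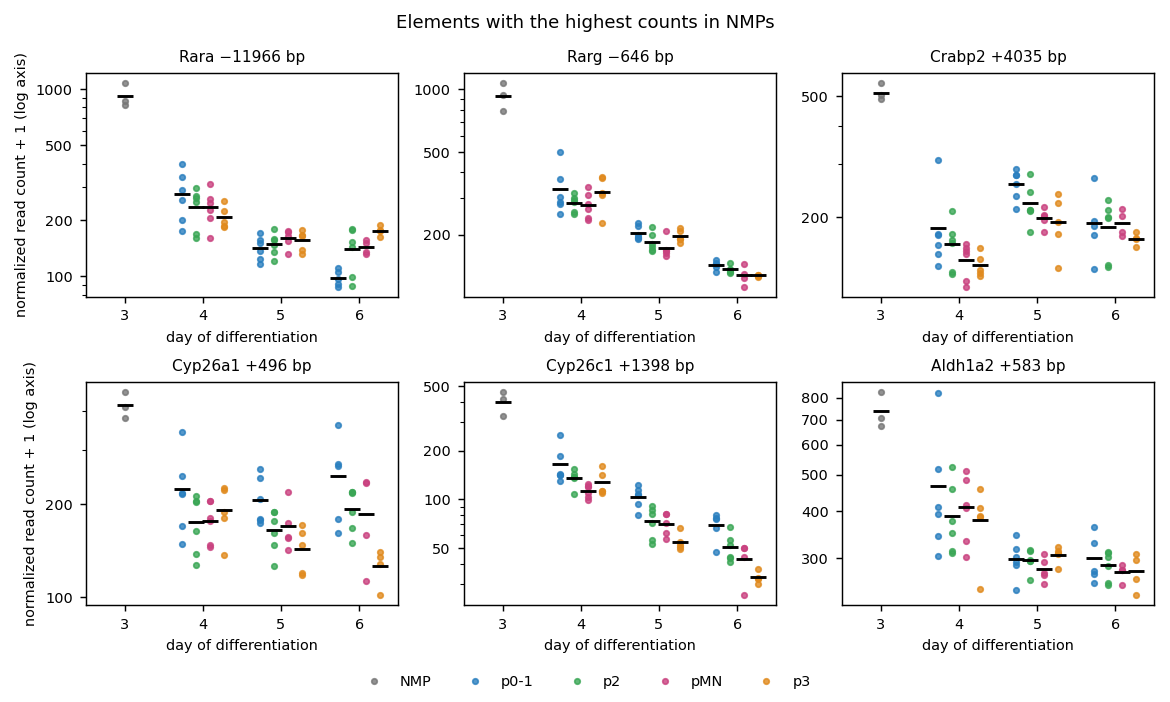
Normalised count plus 1 (log axis) by day for 6 elements that were lower at day 4 than in NMPs, each point 1 sample, coloured by cell type, and each black bar the mean of a type. The NMP samples at day 3 stand above most or all later samples, and Rarg -646 and Cyp26c1 +1398 continue down to day 6.

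The next comparisons followed the NPs as the mean over types from day 4 to day 5 and from day 5 to day 6. From day 4 to day 5, 5 of the 39 elements rose and 0 fell, against 11.7% and 1.81% of all tested elements. From day 5 to day 6, 3 rose and 0 fell, against 1.28% and 1.53%. The median over all tested elements moved by 0.13 and 0.08 in these steps, and that of the 39 by 0.14 and -0.05. The limma fit gave 0 falling members at both steps with this fold threshold, and elements such as Rarg -646 and Cyp26c1 +1398 were lower by less than it at each step. Cyp26b1 -186026 had a 2.11-fold lower mean count at day 5 than at day 4 but was not called on the VST scale.

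The elements that rose late belonged to Cyp26b1, Dhrs3 and Crabp1. Cyp26b1 -47014 (chr6:84640270-84641379), in an Exoc6b intron, had 10.8, 10.8 and 18.2 normalised counts in NMPs, medians of 27.1 at day 4, 159 at day 5 and 814 at day 6. The ranges at days 4, 5 and 6, 13.5 to 55.8, 72.6 to 356 and 445 to 1426, did not overlap. The differences were 2.16 ± 0.11 (adjusted p = 3.72e-23) and 2.23 ± 0.11 (adjusted p = 4.90e-21). Cyp26b1 -36711 (chr6:84630144-84630898), in the same intron, rose by 2.23 ± 0.09 and then 1.69 ± 0.09, from a median of 7.50 at day 4 to 75.2 at day 5 and 286 at day 6.

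At Dhrs3, the late elements were Dhrs3 +97002 and Dhrs3 +141812. Dhrs3 +97002 (chr4:144989047-144991112) rose by 1.32 ± 0.10 at day 5 and 1.03 ± 0.11 at day 6, with medians of 38.1, 145 and 319 normalised counts at days 4, 5 and 6. Dhrs3 +141812 rose by 1.15 ± 0.08 at day 5 and had medians of 383, 933 and 1270. The fifth element that rose at day 5 was Crabp1 +45625, by 1.75 ± 0.07, from a median of 40.7 to 176.

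**Figure D3:**
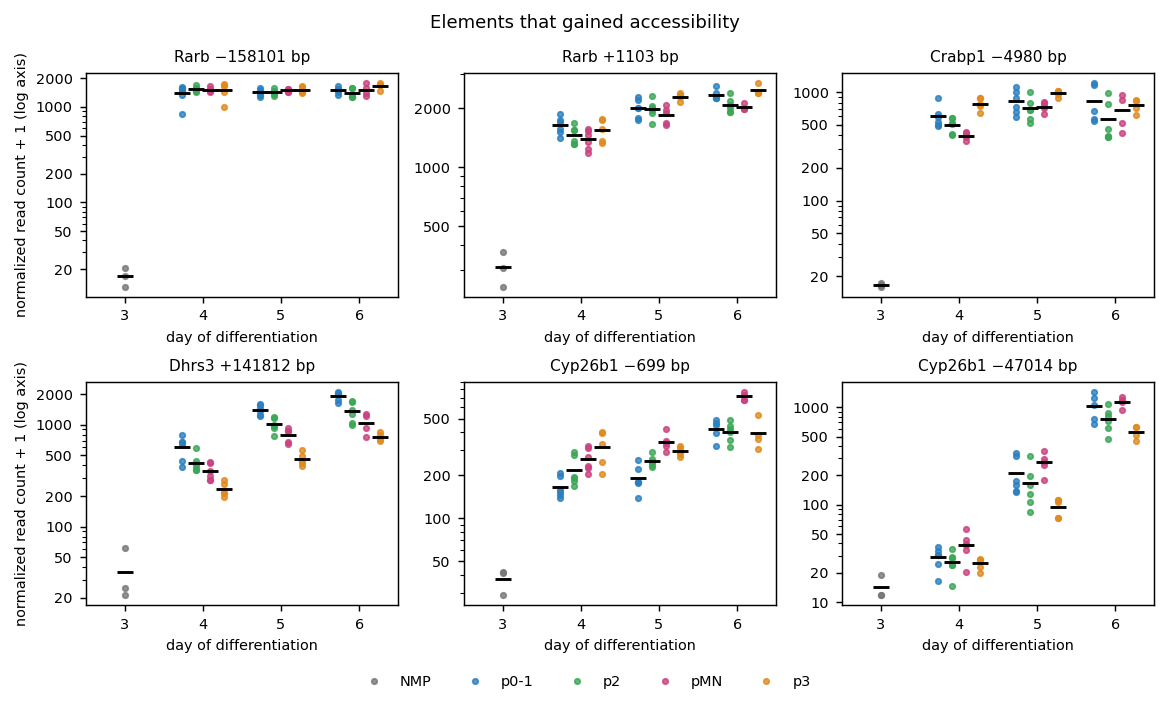
Normalised count plus 1 (log axis) by day for 6 elements that were higher in NPs than in NMPs, each point 1 sample, coloured by cell type, and each black bar the mean of a type. Rarb -158101 is at its full level at day 4, with a median of 1519, and Cyp26b1 -47014 rises from day 4 to day 5 and from day 5 to day 6, to a median of 814.

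**Figure D4:**
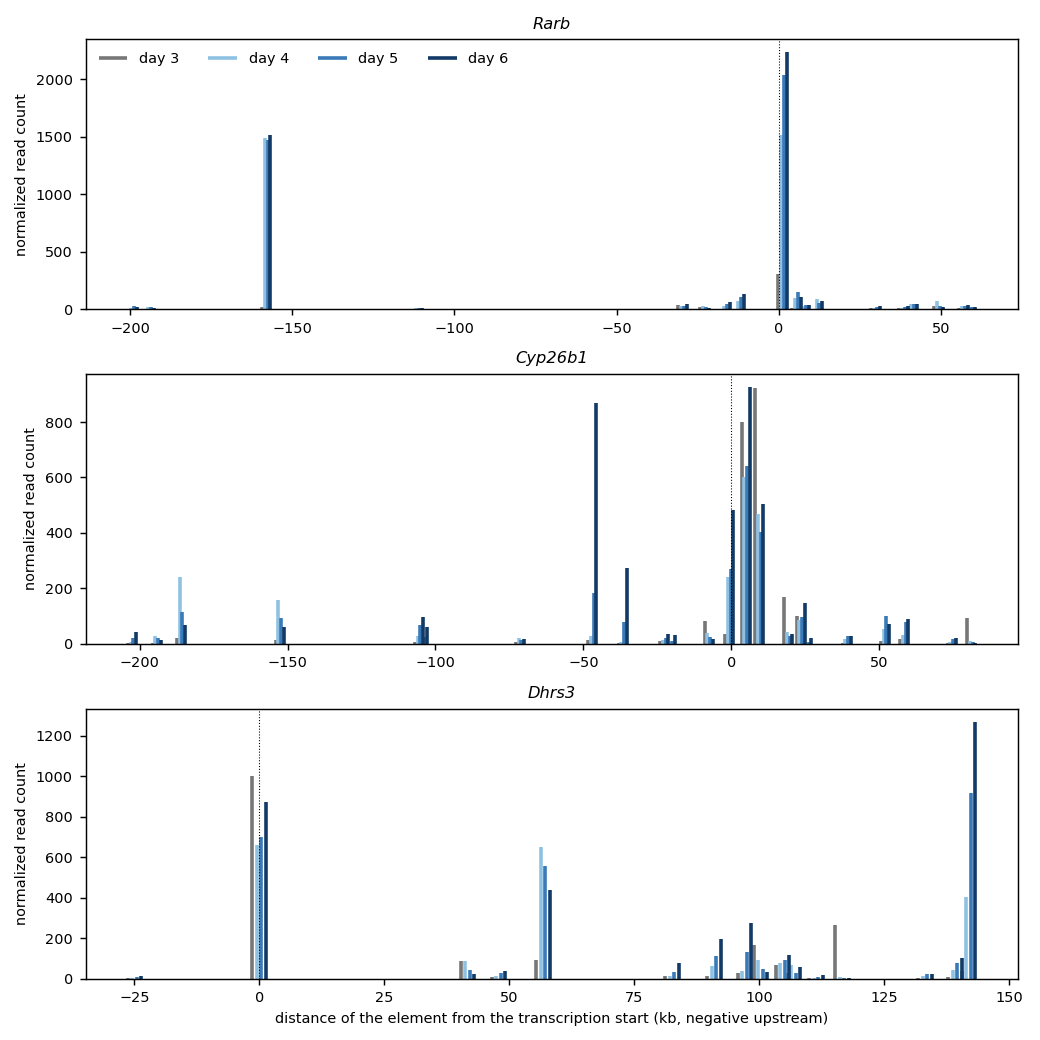
Mean normalised count per day (the mean of the type means) of every element assigned to Rarb, Cyp26b1 and Dhrs3 against its distance from the annotated start of transcription in kb. The bars of the 4 days of an element stand side by side. At Cyp26b1, the elements at -186026 and -152661 are tallest at day 4 and those at -47014 and -36711 at day 6.

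The third set of comparisons set p3, the most ventral of the sorted types, against the mean of p0-1, p2 and pMN on each day. At day 6 the 4 p3 and 4 pMN samples carried only replicate numbers 2 and 3, each at 100 and 500 nM SAG. The p0-1 and p2 samples also included replicate 1. The fit treated all samples as independent, though same-numbered samples of a day were mostly paired. At day 4, 1 of the 39 elements was higher and 2 were lower in p3, against 1.75% and 5.64% of all tested elements. At day 5, 1 was higher and 4 lower, against 3.94% and 10.8%, and at day 6, 2 were higher and 3 lower, against 6.45% and 12.3%. All p3 samples lay outside the range of the other types for 2 of the 39 elements at day 4, 3 at day 5 and 5 at day 6, against 6.17%, 16.8% and 18.1% of all tested elements. The types also differed in SAG, since p3 and pMN came from the higher concentrations, so p3 was also compared with pMN at the same SAG, a comparison chosen after seeing the data. At day 6 that called 8 elements, 2 higher and 6 lower in p3, shares near the 5.75% and 15.1% of all tested elements. They were the 5 elements called against all other types, and Crabp1 -14654, Cyp26b1 +23434 and Cyp26b1 -47014, all 3 lower in p3.

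Cyp26a1 +92936 (chr19:37790054-37791434) was lower in p3 on all 3 days. At day 6 the 4 p3 samples lay between 21.4 and 39.6 normalised counts and the 15 samples of the other types between 90.2 and 381, a difference of -2.41 ± 0.23 (adjusted p = 1.32e-12) and of -2.06 against pMN. At day 5 the p3 samples lay between 22.4 and 47.4 and the others between 130.5 and 280 (-2.29 ± 0.21), and at day 4 the difference was -1.57 ± 0.21. The means at days 4, 5 and 6 were 30.2, 30.3 and 28.6 in p3, 89.8, 213 and 287 in p0-1, 119, 159 and 188 in p2, and 141, 225 and 160 in pMN. The test of the change over these days, given after the single elements, did not call it.

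Elements downstream of Dhrs3 differed between p3 and the other types in opposite directions. Dhrs3 +90947 (chr4:144983565-144984483) was higher in p3, by 1.08 ± 0.27 at day 4, 1.94 ± 0.28 at day 5 and 2.72 ± 0.30 at day 6. Its day 6 samples lay between 305 and 848 normalised counts in p3 and between 22.4 and 283 in the other types (adjusted p = 6.78e-11, and a difference of 3.11 from pMN). Dhrs3 +97002, whose centre is about 6 kb farther downstream, was lower in p3, by 1.32 ± 0.17 at day 5 and 1.32 ± 0.19 at day 6, with samples between 72.6 and 211 in p3 and between 173 and 500 in the others. Dhrs3 +141812 was lower in p3 at day 5 (-1.13 ± 0.14), between 392 and 566 against 648 to 1588. At day 6 it lay between 692 and 851 in p3 and between 760 and 2091 in the others, and was not called.

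At the remaining called elements, Aldh1a2 +25925 was lower in p3 at day 4 by 1.23 ± 0.19, with a range of 26.2 to 88.1 in p3 and 55.8 to 272 in the others. Crabp1 +37755 (chr9:54801336-54803670) was lower in p3 at day 5 (-1.03 ± 0.10) and day 6 (-1.35 ± 0.11, adjusted p = 2.82e-15). Its day 6 samples lay between 55.3 and 97.3 in p3 and between 134 and 307 in the others. Rara +16416 (chr11:98952984-98955240), in an intron of Rara, was higher in p3 at day 6 by 1.18 ± 0.09 (adjusted p = 2.47e-16), with 599 to 843 in p3 and 220 to 382 in the others. Without replicate 3 of each condition this difference was 0.95, below the fold threshold.

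A test of the change from day 4 to day 6 in p3 against that in the other types called 2 elements higher and 1 lower of the 39, against 4.20% and 6.73% of all tested elements. Rara +16416 gained 1.02 ± 0.12 more in p3 (adjusted p = 2.40e-09) and Dhrs3 +97002 gained less (-1.16 ± 0.26). Dhrs3 +90947 gained 1.64 ± 0.41 more (adjusted p = 0.00158). None of the 3 was called when SAG conditions were averaged, with an adjusted p of 0.0149 at Dhrs3 +90947. The call of Dhrs3 +90947 was also lost without replicate 1 and without replicate 2. Against pMN at the same SAG none of the 3 was called, with differences of 0.84 at Rara +16416, below the fold threshold, -1.07 at Dhrs3 +97002 (adjusted p = 0.0109) and 1.65 at Dhrs3 +90947 (adjusted p = 0.0131). That comparison called 0 member elements higher and 4 lower, against 2.95% and 6.62% of all tested elements. The 4 were Crabp1 +37755 (-1.23), Crabp1 -14654 (-1.23), Cyp26b1 -186026 (-1.19) and Cyp26b1 -699 (-1.12).

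Several Rarb elements below the minimum mean were highest in p3, and were chosen after their values were seen. Rarb -16305 lay between 143 and 358 normalised counts in the 4 p3 samples of day 6, while the means of the other types were 4.27, 18.8 and 11.0. Rarb +12133 lay between 135 and 360 in p3, with means of 13.8, 27.3 and 19.1 in p0-1, p2 and pMN. Rarb -12018 lay between 135 and 594 in p3, with means of 30.6, 83.9 and 76.8. Without the minimum mean these 3 were higher in p3 by 3.49, 2.95 and 2.02 at day 6, and 10 of the 60 low elements were higher and 5 lower, near the 15.2% and 11.5% of all elements below it. The tested Rarb +1103 and Rarb -158101 differed by 0.21 and 0.18 between p3 and the other types at day 6. The third tested element, Rarb +5589, had a 1.74-fold higher mean count in p3 at day 6 and was not called.

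**Figure D5:**
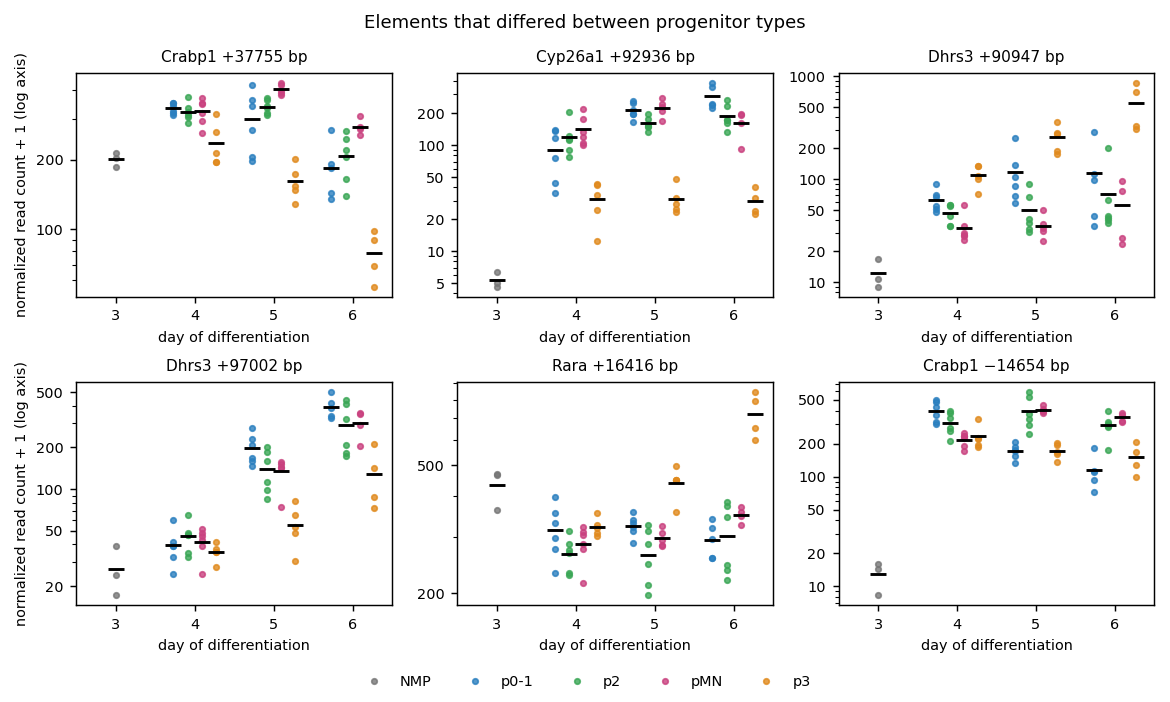
Normalised count plus 1 (log axis) by day for 6 elements that differed between cell types, each point 1 sample, coloured by cell type, and each black bar the mean of a type. At day 6 the 4 p3 samples of Dhrs3 +90947 lie between 305 and 848, above all other samples, and those of Cyp26a1 +92936 between 21.4 and 39.6, below all others.

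The fourth set of comparisons was among p0-1, p2 and pMN. At day 4, 0 of the 39 elements were called by limma in any of the 3 pairs, against 4.21% of all tested elements. At an unadjusted p below 0.05, 23 of the 39 passed in some pair, against 39.6% of all tested elements, and limma-voom on the recovered reads also called 0. At day 5, 3 elements were called (9.32% of all tested elements), and at day 6 also 3 (12.8%).

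The element with the largest of these differences was Crabp1 -14654 (chr9:54749677-54750512). At day 6 its samples lay between 70.6 and 180 normalised counts in p0-1, between 175 and 393 in p2 and between 316 and 382 in pMN. The p0-1 and pMN samples did not overlap, with a difference of 1.61 ± 0.21 (adjusted p = 2.30e-08), and p2 was above p0-1 by 1.35 ± 0.19. At day 5 the same differences were 1.22 ± 0.19 and 1.10 ± 0.18, while at day 4 the mean was 398 in p0-1 and 216 in pMN. In p3 the day 6 mean was 150, near that of p0-1, and lower than pMN at the same SAG by 1.18.

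At Cyp26b1, Cyp26b1 -36711 was higher in pMN than in p0-1 at day 5 (1.21 ± 0.17) and day 6 (1.05 ± 0.19). Cyp26b1 -152661 was lower in pMN than in p0-1 (-1.15 ± 0.18) and than in p2 (-1.01 ± 0.17) at day 6, with pMN samples between 26.9 and 34.7, p2 samples between 69.3 and 84.4 and p0-1 samples between 64.7 and 135. Dhrs3 +90947 was lower in pMN than in p0-1 at day 5 (-1.33 ± 0.33). Some elements below the minimum mean were chosen after their values were seen. Cyp26a1 +154142, which holds a DR5, lay between 177 and 196 in pMN and between 18.8 and 41.4 in p0-1 at day 6. Aldh1a2 +116113 lay between 117 and 152 in pMN and between 41.6 and 91.3 in p2 at day 6. It lay between 11.9 and 67.6 in p0-1 and between 8.14 and 18.1 in p3. Without the minimum mean, pMN was above p2 by 0.72 at Cyp26a1 +154142 and 0.95 at Aldh1a2 +116113 at day 6, neither called.

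Within a cell type and day, the effect of SAG was tested between the 2 concentrations from which the type was sorted, in 12 comparisons. By limma 0 of the 39 elements were called in any of them, and 1.17% of all tested elements were. At an unadjusted p below 0.05, 26 elements passed in at least 1 of the 12, against 48.8% of all tested elements, and limma-voom called 1 element, Dhrs3 +97002 in p2 at day 6 (-1.05). The sample numbers mostly paired samples within days 4, 5 and 6. With replicate number as a block, Dhrs3 +90947 was called in p0-1 at day 6 (-1.45, adjusted p = 0.00161, and adjusted p = 0.0511 without the block). With the block within days it was called at day 5 (-1.01, adjusted p = 0.000797) and day 6 (-1.32, adjusted p = 7.03e-05). At day 5 its samples had 137, 103 and 250 normalised counts at 0 nM and 67.7, 58.0 and 85.6 at 10 nM SAG. At day 6 they had 111 and 283 at 0 nM and 33.8, 43.1 and 97.8 at 10 nM. The 10 nM samples were lower on both days. The element was picked for its call under the blocks, and the main fit did not call it. How many of all tested elements were as far apart between SAG concentrations was not counted. The highest of the 0 nM samples at day 6 was a library that stood apart.

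Across all comparisons other than SAG, 31 of the 39 elements were called at least once, against 57.4% of all tested elements. The other genes of the pathway, which encode RXR, retinol and retinaldehyde enzymes, retinol carriers and receptor cofactors, had 161 elements, 55 of them tested, and 36 of the 55 were called at least once. At day 4 against NMPs, 14 of the 55 rose and 5 fell, against 30.6% and 13.8% of all tested elements. The median difference of the 55 was -0.0045. The largest difference was at Aldh1a3 -53287, near another gene for making retinoic acid, which rose by 3.42. From day 4 to day 5, 4 rose and 2 fell, among them Nrip1 +53122 by 2.40, whose gene encodes a receptor corepressor. Over all tested elements, 11.7% rose and 1.81% fell in that step. From day 5 to day 6, 1 rose and 2 fell, against 1.28% and 1.53% of all tested elements. At day 6, 4 were higher and 3 lower in p3, with Rdh10 +30870, at the gene of the enzyme that oxidises retinol, higher by 2.44. Over all tested elements, 6.45% were higher and 12.3% lower in p3 at day 6.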

How the data were processed

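The deposited table holds log2-scale VST values, which the authors made with DESeq2 from reads counted in consensus elements. Per the labels, reads were aligned to mm10 and peaks called with MACS. The study's methods give the nf-core pipeline for ATAC-seq, consensus elements found in at least 2 replicates and passing a q-value filter, and reads counted by featureCounts. Per the file headers, HOMER gave the nearest gene. The versions of DESeq2 and MACS are not given in the sources used here. The VST was inverted to normalised counts and reads, whole to within 5.98e-11.

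All 25 conditions were fitted in 1 limma-trend model (limma 3.58.1, R 4.3.3) of the VST values of the 31744 elements with a mean over 100 normalised counts, with Benjamini-Hochberg adjustment over all of them. Types were equal means of their SAG conditions. The test recovered known changes between NMPs and NPs in data simulated with independent samples. Changes near the fold threshold and the other comparisons were not simulated.

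The elements named were the 1 nearest each start of transcription, the largest called difference per gene (day 4 against NMPs, and p3 at day 6) and the largest over the set in the other comparisons. Others with their values were chosen after the values were seen. Some elements of other pathway genes that this rule would name are not reported here. The members and lists were chosen with earlier results of these data known.

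Sequences come from RefSeq's GRCm38. Deviations from condition means correlated above 0.1 in all 71 same-numbered pairs at day 5, all 59 at day 6 and 69 of 77 at day 4. The median correlation of these pairs was 0.62 at day 4, 0.57 at day 5 and 0.56 at day 6. The numbers thus mostly paired samples on each of these days. The main fit had no replicate block and treated same-numbered samples as independent. Replicates were separate differentiations. The alternatives were voom on recovered reads, log2 normalised counts with a pseudocount of 1, other minimum means and thresholds, centring, fits of only the samples compared, replicate blocks and leaving out replicates.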

Additional observations from a re-analysis of the deposited data

Results flagged for a closer look

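In 6 of 104 groups examined, 1 sample lay far from the rest, and chance flags about 1 group in 20. In p0-1 at day 4, the sample at 10 nM SAG replicate 3 was lowest at Rarb -158101 (834 normalised counts) and highest at Crabp2 +4035 (306), and this library stood apart from the others of its type and day over all elements. Among the 6 p2 samples of day 4, replicate 3 at 10 nM SAG was lowest at Cyp26b1 -186026 (196) and replicate 1 at 10 nM SAG at Cyp26c1 +1398 (107). Among the 5 p3 samples of day 4, replicate 1 at 500 nM SAG was lowest at Aldh1a2 +583 (248). Among the 6 p2 samples of day 6, replicate 3 at 100 nM SAG, another library that stood apart, was highest at Dhrs3 +90947 (201).

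The change from day 4 to day 6 differed between p3 and the other types by the test of the difference itself at Rara +16416 (1.02), Dhrs3 +97002 (-1.16) and Dhrs3 +90947 (1.64). None of the 3 was called when p3 was set against pMN at the same SAG, or when SAG conditions were averaged.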

How the results depend on the processing

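Direction was followed for the values of single named elements, and none of them changed it under the alternatives run. The counts of called elements were followed by size, not by direction. Of the values of single named elements under alternatives, 338 kept their call, 7 lost it and 1 gained it. Of the counts of called elements, 154 were within 1.5 times the reported value and 32 were not.

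Requiring a difference above 2 left 13 of 20 calls at day 4 against NMPs, 2 of 5 from day 4 to 5, 1 of 3 from day 5 to 6, 0, 1 and 2 for p3 at days 4, 5 and 6, 0 among the other 3 types at day 5 as at day 6 (0), and 0 for the change in p3. Dropping the minimum mean, which adds 60 low elements, gave 46, 8, 7, 15 and 20 for day 4 against NMPs, day 4 to 5 and p3 at days 4, 5 and 6, and 1, 12 and 16 among p0-1, p2 and pMN at the 3 days, and 10 for the change in p3. Fitting only the samples compared gave 3 from day 4 to 5, 1 for p3 at day 4, and, among the other 3 types, 1 at day 5 and 6 at day 6. Against pMN at the same SAG, chosen after seeing the data, p3 differed at 8 elements at day 6, of which 2 were higher, with 5.75% higher and 15.1% lower among all tested elements, and the change in p3 was higher at 0 and lower at 4, against 2 and 1. The change in p3 was called at 5 elements by a fold threshold in normalised counts, at 5 with centring on sample medians (4 higher and 1 lower, against 2 and 1), and at 0 averaged over SAG. Centring also gave 4 higher and 1 lower from day 4 to 5, against 5 and 0, and 1 higher and 1 lower among the other 3 types at day 6, against 2 and 1.

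Leaving out each replicate number in turn gave 19 to 22 calls at day 4 against NMPs, 4 to 6 from day 4 to 5, 2 to 3 from day 5 to 6, 2 to 3, 5 to 5 and 4 to 5 for p3 at days 4, 5 and 6, and 0 to 0, 2 to 3 and 2 to 4 among p0-1, p2 and pMN on those days. It gave 0 to 0 for SAG. For the change in p3 it gave 1 to 5, 1 without replicate 1 and 5 without replicate 3. Where this left 1 sample in a condition, that sample was assumed to vary like the rest. Aldh1a2 +583 was called at day 4 without replicate 3 (-1.10). The cause of these changes was not tested.

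Under a replicate block the SAG comparisons gave 1 called element, 1 also with the block within days, and 2 with the other numbering in the labels, and voom gave 1. The block moved no other count by more than 1.5 times and changed no call of a named element. Depth in elements varied by sample, and low elements carry more counting error.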
